A study of Mus musculus with 78 samples.

Results

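The immediate early transcription factors are genes whose transcripts appear within minutes of a stimulus, without new protein synthesis, and are removed almost as fast. The 10 followed here in mouse lung are the zinc finger proteins Egr1, Egr2 and Egr3, the orphan nuclear receptor Nr4a1, the AP-1 subunits Fos, Fosb, Jun and Junb, the stress-induced repressor Atf3 and the nuclear regulator Ier2. They were chosen by name, though with earlier results of these data known. Each has exactly 1 probe set that carries its symbol and no other, so 10 of 10 were measured among the 18820 genes with such a probe set. Lung RNA of single mice was hybridized to Mouse Gene 1.0 ST arrays (Affymetrix), each mouse to its own array, and the 78 arrays fall into 9 groups. All were wild-type male C57BL/6J mice about 10 weeks old that had been accustomed to food in the dark phase only. The 9 baseline mice were taken at lights on. Sleep-deprived mice were kept awake by gentle handling from lights on for 3, 6, 9 or 12 h (9, 9, 9 and 8 mice), and sleeping mice were left undisturbed for the same 3, 6, 9 or 12 h (9, 7, 9 and 9 mice). All groups were killed by cervical dislocation, and no electroencephalogram was taken. Sleep was estimated from activity in the study, and the amounts of single mice were not used here. Undisturbed mice were awake for part of the time, and deprived mice may have slept briefly. Heart arrays were not analysed here.

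Early genes read out the recent past of a cell. Serum response factor with its Elk partners, and Creb bound to cyclic AMP response elements, sit on their promoters and are switched by kinases such as Erk, and the proteins made then start or hold back a second wave of genes. Fos and Jun proteins pair through leucine zippers into the AP-1 factor, EGR proteins bind GC-rich sites and are held in check by the Nab co-repressors, and NR4A receptors act without a known ligand. In brain, their transcripts are widely used as marks of waking activity. In lung, they are known to respond to stretch, injury, growth factors and adrenergic signals.

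Promoters are shown for some of the genes that moved together over the mice (below), with Jun, which did not, beside them. Since they were picked by that result, the printed windows cannot show whether a motif goes with moving together. RefSeq (GRCm38.p6) gave a promoter window for 7 of the 10 members, namely Egr2, Nr4a1, Fos, Fosb, Jun, Junb and Atf3. Egr1, Egr3 and Ier2 are named only. The 250 bases before the annotated start are printed 5′ to 3′ on the strand of the gene, with capitals for TGACG, the short form of the cyclic AMP response element and for the EGR site GCGGGGGCG, on either strand.
Nr4a1, chr15:101266596-101266845, plus strand: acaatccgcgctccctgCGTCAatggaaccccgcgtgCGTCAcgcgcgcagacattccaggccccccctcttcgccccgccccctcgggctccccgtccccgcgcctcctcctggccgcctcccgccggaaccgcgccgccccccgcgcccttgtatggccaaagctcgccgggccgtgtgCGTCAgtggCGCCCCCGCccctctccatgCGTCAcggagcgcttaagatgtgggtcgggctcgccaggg
Fos, chr12:85473640-85473889, plus strand: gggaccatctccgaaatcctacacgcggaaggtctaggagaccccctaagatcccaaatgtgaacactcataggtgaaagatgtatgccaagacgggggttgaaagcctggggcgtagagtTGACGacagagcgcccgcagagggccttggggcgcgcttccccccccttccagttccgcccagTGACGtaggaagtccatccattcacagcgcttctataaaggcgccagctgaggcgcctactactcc
Fosb, chr7:19310046-19310295, minus strand: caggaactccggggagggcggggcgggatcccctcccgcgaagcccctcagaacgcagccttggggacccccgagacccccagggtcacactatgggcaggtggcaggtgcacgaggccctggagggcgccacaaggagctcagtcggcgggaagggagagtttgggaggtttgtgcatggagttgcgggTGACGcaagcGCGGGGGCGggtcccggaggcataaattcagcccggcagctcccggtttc
Jun, chr4:95052223-95052472, minus strand: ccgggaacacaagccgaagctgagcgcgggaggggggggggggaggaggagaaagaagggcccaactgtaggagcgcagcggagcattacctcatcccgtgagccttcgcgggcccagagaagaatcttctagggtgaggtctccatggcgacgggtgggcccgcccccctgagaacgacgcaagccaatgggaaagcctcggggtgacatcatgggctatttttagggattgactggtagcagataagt
The short form TGACG was found in 6 of the 7 genes (8 of their 11 windows, Egr2 having several starts). It was found in 17.8% of the 32851 windows of all genes, a share of windows and not of genes. Some windows of Egr2 overlap, so the same 2 copies were counted in more than 1 window. Nr4a1 held 4 copies, whose outer bases lie 233 and 36 bases before its start, and Fos held 2, which begin 129 and 66 bases before its start. Jun held none. The EGR site GCGGGGGCG was found in Nr4a1 and Fosb, and in 2.57% of all windows. The CArG box, to which serum response factor binds, was found only in Egr2 among these 7 genes, and in 1.47% of all windows. It lay in 4 windows of Egr2, some of which overlap and share the same copy. No copy of the full element TGACGTCA (which holds the short form on both strands), of the AP-1 site TGACTCA or of the second EGR form GCGTGGGCG was found, against 1.55%, 4.46% and 0.536% of all windows. These are matches of letters in short windows, not bound sites.

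Before the values, the arrays themselves need a word. Array numbers in the labels run in blocks of conditions, with array 81 placed between arrays 8 and 10. When the order of conditions is laid along the numbers without array 81 in that place, 15 arrays would take the condition of a neighbouring group. In a check on 200 probe sets chosen without the array at hand and without the 10 members, all 15 were nearest to the group that their number gives and 0 to their labelled group, while their labelled group was the nearest for 59 of the other 62 arrays. The order as laid out ended at array 79 with the sleeping group of 6 h, so it gave no condition to arrays 80 and 81. Both lay nearest to that group, which is the labelled group of array 80 but not of array 81. Conditions were used as labelled, and the main results are given with all 78 arrays and without these 16. Array numbers also split into 4 runs, of which 2 hold only mice of 9 and 12 h. Another holds all baseline mice beside mice of 3 h and 6 h, and the last holds mice of 3 h and 6 h without baseline. Hours past 6 therefore cannot be told apart from a change of run, and differences of 3 h and 6 h from baseline fall together with it in part. Both states occur in every run. Within each run, however, the sleep-deprived mice of an hour come before the sleeping mice of that hour by array number (with array 81 in place 9), so state and array order cannot be told apart. Lung epithelial markers checked the tissue. Their summed level had medians from 15.49 to 15.57 on the log2 scale in the 4 groups of 3 h and 6 h. None of the 8 markers passed the test between the states at either hour (1 at 6 h without the 16 arrays). At 3 h 7.36% of all genes changed, and at 6 h 0.085%. Transcripts of other tissues were also present in some lungs and are given below.

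Egr1 was the member that differed most clearly between sleep-deprived and sleeping mice. Its mean was below that of sleeping mice at 3, 6 and 9 h, past the threshold at 6 h alone, and at 12 h its difference had the opposite sign. Nr4a1 followed the same course, but with all arrays and no array weights its difference passed the threshold at no hour. At 6 h it passed once the 16 arrays were left out, with array weights, or without array 51, 66 or 74 alone. Fos, Fosb, Junb, Egr3, Ier2 and Atf3 had differences below 0 at 3, 6 and 9 h without passing at any single hour, and those of Fosb and Egr3 lay below 0 at 12 h as well. Egr2 and Jun had differences of both signs and also passed at no hour. Values are log2 intensities, so a difference of 1 is a doubling, and a gene was called at a Benjamini-Hochberg adjusted p under 0.01 from limma over all 35556 probe sets.

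**Figure D1:**
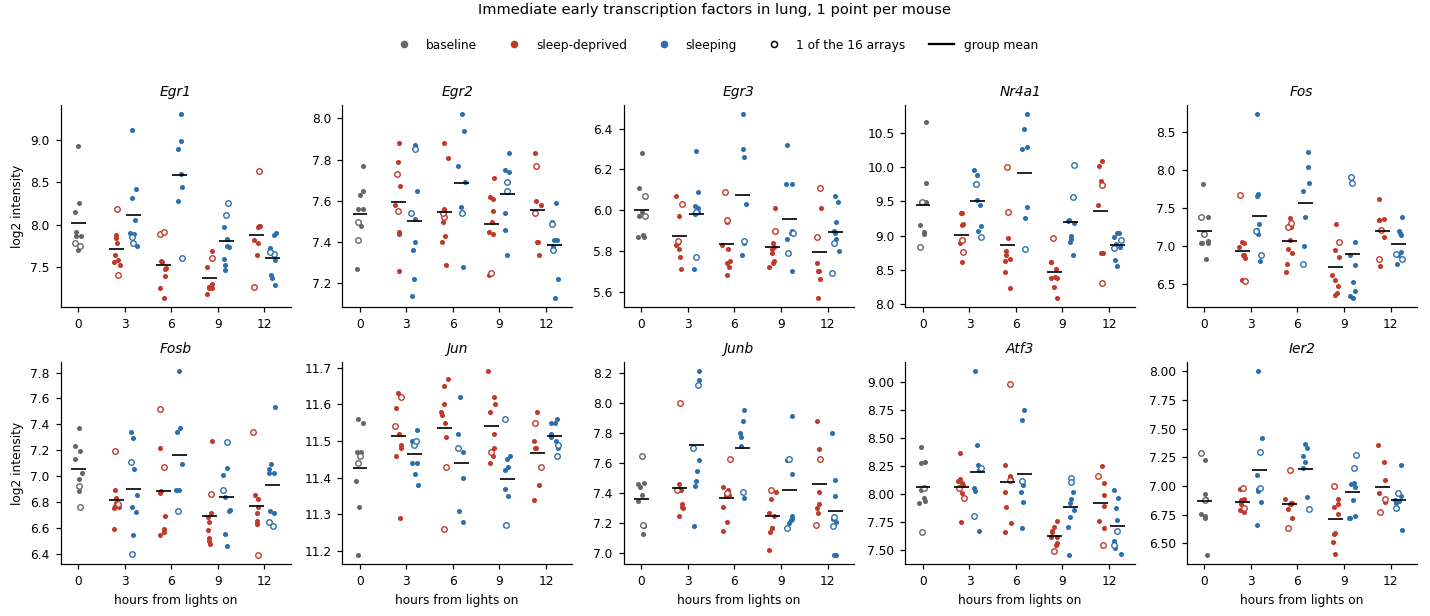
Log2 intensity (vertical axes, each panel with its own range) of the 10 genes against hours from lights on (horizontal axes), 1 point per mouse in grey for baseline, red for sleep-deprived and blue for sleeping mice, with open points for the 16 arrays and black bars for group means. The sleeping mice at 6 h hold the highest group mean of Egr1 (8.59), Nr4a1 (9.91) and Fos (7.57), and the sleep-deprived mice at 9 h the lowest (7.37, 8.47 and 6.73).

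Egr1 encodes the founding EGR factor, which drives growth and tissue repair genes. Baseline mice had a lowest, median and highest log2 intensity of 7.70, 7.87 and 8.93. After 3 h the values were 7.41, 7.64 and 8.18 in sleep-deprived and 7.75, 7.90 and 9.11 in sleeping mice. After 6 h they were 7.14, 7.49 and 7.92 against 7.61, 8.60 and 9.30. At that hour 9 of 9 sleep-deprived mice lay below the sleeping median and 6 of 7 sleeping mice lay above every sleep-deprived mouse, the exception being array 66, whose number falls on 3 h of deprivation. After 9 h the values were 7.19, 7.27 and 7.69 against 7.47, 7.75 and 8.26, and after 12 h they were 7.27, 7.90 and 8.63 against 7.29, 7.66 and 7.90. The groups overlapped at every hour, and at 12 h the order of the medians was turned. The states did not overlap at 6 h once the 16 arrays were left out, with sleep-deprived mice up to 7.57 and sleeping mice from 8.28.

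At 6 h, Egr1 fell by 1.06 in sleep-deprived relative to sleeping mice (SE 0.17, adjusted p = 0.000546 from limma). Without the 16 arrays it fell by 1.33 (SE 0.15, adjusted p = 1.46e-08). Within the runs that hold this hour the difference was -0.92 (5 against 5 mice) and -1.42 (4 against 2 mice). Leaving out array 80, the sleeping mouse with the highest value, gave an adjusted p of 0.0138, and a fit of the 2 groups alone gave 0.26. Over all hours Egr1 fell by 0.38 (SE 0.10, adjusted p = 0.00629 from limma), or by 0.48 without the 16 arrays (adjusted p = 0.00183), and the call was lost without array 64, 65 or 75, all sleeping mice with high values (largest adjusted p 0.0108). With 5 runs as a block, which partly follow the states at 3 and 6 h, it was -0.35 (adjusted p = 0.0316). Since RNA of whole lung was measured, a lower level can come from fewer cells that make the transcript as well as from less transcript per cell, and these cannot be told apart.

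The difference of Egr1 changed over the hours by limma's F test of interaction (adjusted p = 0.00927, and 3.65e-05 without the 16 arrays). At 3 h it was -0.41 (SE 0.16, adjusted p = 0.0736), but -0.12 in 1 run (5 against 5 mice) and -0.76 in the other (4 against 4 mice). At 9 h it was -0.44 (SE 0.16, adjusted p = 0.0639) and at 12 h it was 0.27 (SE 0.16, adjusted p = 0.784). The interaction call is a narrow one, since leaving out any 1 of 43 arrays moved its adjusted p past the threshold (0.0178 at most), and it was 0.0136 with 5 runs as a block. In sleeping mice Egr1 stood 0.56 above baseline after 6 h (SE 0.17, adjusted p = 0.0800), a difference that passed without the 16 arrays (0.65, adjusted p = 0.00783). In sleep-deprived mice it fell by 0.65 below baseline after 9 h (SE 0.16, adjusted p = 0.00131), and without the 16 arrays already by 0.68 after 6 h (adjusted p = 0.00140). The 9 h step against baseline falls together with a change of run.

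Nr4a1, also called Nur77, is a nuclear receptor induced in lymphocytes, macrophages and endothelium. Baseline mice ran from 8.83 to 10.66 around a median of 9.49. After 3 h the lowest, median and highest values were 8.61, 8.94 and 9.33 in sleep-deprived and 8.98, 9.52 and 9.96 in sleeping mice. After 6 h the lowest and median were 8.24 and 8.72 in sleep-deprived mice, whose highest was array 74, against 8.80, 10.26 and 10.77 in sleeping mice. Array 74 has a number that falls on 3 h of sleep, the next mouse was array 51 at 9.34, also among the 16, and without the 16 arrays the highest sleep-deprived mouse was at 8.96 and the lowest sleeping mouse at 9.25. After 9 h the values were 8.09, 8.40 and 8.96 against 8.72, 9.18 and 10.03, and after 12 h they were 8.31, 9.59 and 10.09 against 8.55, 8.88 and 9.04. At 3, 6 and 9 h, all 9 sleep-deprived mice of each hour lay below the sleeping median, and at 12 h the medians were in the opposite order.

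The difference of Nr4a1 was -0.48 at 3 h (SE 0.21, adjusted p = 0.129 from limma), -1.04 at 6 h (SE 0.23, adjusted p = 0.0170), -0.73 at 9 h (SE 0.21, adjusted p = 0.0224) and 0.50 at 12 h (SE 0.22, adjusted p = 0.544). Without the 16 arrays it fell by 1.46 at 6 h (SE 0.21, adjusted p = 2.2e-06), and the states overlapped neither at 6 h nor at 9 h. With array weights it fell by 1.29 at 6 h (adjusted p = 0.00225), and it also passed there without array 51, 66 or 74 alone. Within runs the difference at 6 h was -1.08 and -0.92. At 3, 9 and 12 h without the 16 arrays the difference was -0.48, -0.62 and 0.62 (adjusted p = 0.0978, 0.0261 and 0.166). Its interaction over the hours had an adjusted p of 0.0200 with all arrays and 0.000112 without the 16. Against baseline it fell by 0.97 after 9 h of deprivation (SE 0.21, adjusted p = 0.000488).

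**Figure D2:**
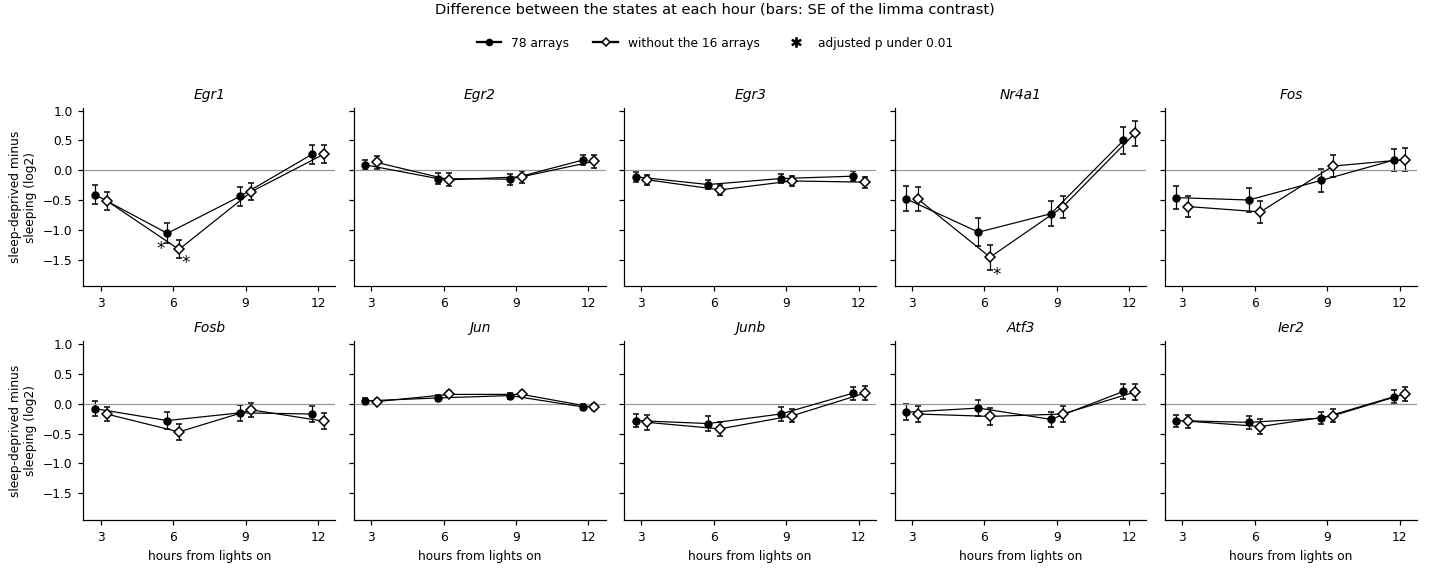
Difference in log2 intensity between sleep-deprived and sleeping mice (vertical axes, the same range in all panels) at 3, 6, 9 and 12 h (horizontal axes) for the 10 genes, filled circles for all 78 arrays and open diamonds without the 16, with bars for the SE and asterisks for an adjusted p under 0.01. Egr1 reaches -1.06 at 6 h (-1.33 without the 16 arrays) and Nr4a1 -1.04 (-1.46), and both lie above 0 at 12 h.

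Fos, the partner that gives AP-1 its transactivating strength, was seen at 6.83, 7.07 and 7.82 (lowest, median, highest) in baseline mice. After 3 h it was at 6.54, 6.89 and 7.68 in sleep-deprived and at 6.80, 7.21 and 8.74 in sleeping mice, and after 6 h at 6.66, 7.08 and 7.37 against 6.76, 7.73 and 8.24. After 9 h the values were 6.36, 6.62 and 7.29 against 6.32, 6.75 and 7.91, and after 12 h they were 6.74, 7.27 and 7.62 against 6.77, 6.93 and 7.39. At 6 h, 9 of 9 sleep-deprived mice lay below the sleeping median, but at 9 h only 5 of 9 did. Its differences were -0.46, -0.50, -0.17 and 0.17 at the 4 hours, with adjusted p from 0.0955 to 0.969 from limma. Without the 16 arrays they were -0.61 and -0.70 at 3 and 6 h (adjusted p = 0.0165 and 0.0179), whereas the difference at 9 h turned to 0.07 (adjusted p = 0.830) and that at 12 h was 0.18. Within runs the 3 h difference was -0.23 and -0.75, and that of 6 h was -0.29 and -0.93.

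Fosb, a Fos relative whose spliced form outlasts the others, did not pass over all hours with all arrays (-0.15, adjusted p = 0.136 from limma) and fell by 0.25 without the 16 (adjusted p = 0.00837). Egr3, an EGR factor of lymphocytes and muscle spindles, was at -0.14 (adjusted p = 0.0131) and fell by 0.21 without the 16 arrays (adjusted p = 0.000293). It also passed with time as a factor (adjusted p = 0.00777) and with 4 runs as a block (0.00886). Group means of Egr3 spanned only 5.80 to 6.07, and those of Fosb 6.69 to 7.16. At 6 h the difference was -0.24 (SE 0.08) for Egr3 and -0.28 (SE 0.14) for Fosb, and neither passed.

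Junb, the AP-1 subunit that tempers Jun, and Ier2, a small nuclear protein of growth stimulation, were higher in sleeping mice at 3, 6 and 9 h by margins that did not pass. Junb differed by -0.28, -0.33 and -0.17 (adjusted p = 0.0735, 0.188 and 0.327 from limma), and Ier2 by -0.28, -0.31 and -0.24 (adjusted p = 0.0654, 0.197 and 0.137). At 12 h the differences were 0.18 and 0.12. The 3 h difference rested on 1 of the runs. It was -0.03 for both genes in the run of 5 against 5 mice, and both fell by 0.59 in that of 4 against 4 (adjusted p = 0.00771 for Junb and 0.00777 for Ier2). Without the 16 arrays the latter run held 3 against 3 mice. The difference there was -0.56 for Junb and -0.62 for Ier2 (adjusted p = 0.0151 and 0.01 from limma). Leaving out the 16 arrays, Junb was at -0.31, -0.42, -0.20 and 0.18, and Ier2 at -0.29, -0.38, -0.20 and 0.17. Ier2 was tight in sleep-deprived mice at 3 h, from 6.77 to 6.98, whereas the sleeping mice of that hour ran from 6.66 to 8.00. Without the 16 arrays its states did not overlap at 6 h (adjusted p = 0.0482).

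Atf3, a repressor induced by stress that binds cyclic AMP response elements, did not differ past the threshold between the states at any hour (-0.14, -0.07, -0.26 and 0.21). The difference that passed was from baseline. Its median was 8.04 in baseline mice, 7.62 after 9 h of deprivation and 7.67 after 12 h of sleep. After 9 h of deprivation it fell by 0.44 below baseline (SE 0.13, adjusted p = 0.00923 from limma), a call lost when any 1 of 14 arrays was left out, and with arrays centred on their median (adjusted p = 0.0121) or quantile normalized (0.0102). Leaving out the 16 arrays it fell by 0.48 (adjusted p = 0.00597). The slope over 12 h of sleep was -0.40 (adjusted p = 0.0334), and this step too falls together with the change of run.

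Jun, the central AP-1 subunit, and Egr2, a factor of myelination and of lymphocyte tolerance, had the smallest differences between the states over all hours beside Atf3. Jun ran from 11.19 to 11.69 over all 78 arrays, with a within-group SD of 0.09, and its largest state difference was 0.14 at 9 h (SE 0.05, adjusted p = 0.0341 from limma), with deprived mice the higher. Egr2 ran from 7.13 to 8.02 and differed by 0.00 over all hours (SE 0.05, adjusted p = 0.998). Jun was thus the only one of the 10 whose difference lay above 0 at 3, 6 and 9 h, though it passed at none of them.

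Counted together, 1 of the 10 members fell with deprivation over all hours and none rose, where 4.35% of all 18820 genes fell and 8.03% changed. Leaving out the 16 arrays, 3 fell, where 5.80% of all genes did. At 6 h, 1 of 10 fell, where 0.0531% of all genes fell and 0.0850% changed, and 2 fell without the 16 arrays, where 1.34% did. At 3, 9 and 12 h none of the 10 passed limma's test, where 7.36%, 2.88% and 0.133% of all genes changed. An unadjusted p under 0.05, in either direction, was reached by 5, 5 and 1 members at these hours. At 6 h 8 members reached it, and over all hours 8. The share of all genes at that level was not computed, here or below. At 3, 9 and 12 h that level was reached by 24, 28 and 9 of the 86 other early genes listed below, and by 31, 26 and 19 of 85 cell type markers. At 6 h 14 of the 86 and 16 of the 85 reached it, and over all hours 25 and 31. None of the 10 members passed at 3, 9 or 12 h without the 16 arrays either (5, 4 and 3 at an unadjusted p under 0.05), where 9%, 7.13% and 0.675% of all genes changed. Of the 10 differences, 8, 9 and 9 lay below 0 at 3, 6 and 9 h and 3 at 12 h, with medians of -0.21, -0.29, -0.17 and 0.17. The median of all genes was within 0.01 of 0 at 3, 9 and 12 h and was 0.02 at 6 h. Several members varied together from mouse to mouse (below), so these signs are not independent of each other. For the change over the hours 1 of 10 passed (0.0691% of all genes), and 2 without the 16 arrays (1.07%).

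Among the 9 groups as a whole, 6 of 10 differed by limma's F test (Egr1, Nr4a1, Fos, Junb, Atf3 and Ier2), where 31.1% of all genes did, and without the 16 arrays all but Egr2 did, where 37.5% of all genes did. Against baseline, 3 of 10 fell after 9 h of deprivation, namely Egr1, Nr4a1 and Atf3, where 8.69% of all genes fell. Without the 16 arrays Fosb joined them (-0.44, adjusted p = 0.00488 from limma), where 9.91% fell. In that comparison 21 of the 85 markers of other cell types and tissues passed as well. All 5 B cell markers, 3 of 7 of neutrophils and monocytes and 4 of 6 of oesophagus and skin fell (list medians -1.04, -0.71 and -3.32), and 4 of 8 of smooth muscle and fibroblasts rose. Their part in the members' differences was not tested. No member passed against baseline after 3, 6 or 12 h of deprivation, where 1.88%, 0.335% and 5.39% of all genes changed, or after 3, 6, 9 or 12 h of sleep, where 0.0159%, 0.383%, 3.52% and 6.34% did. At an unadjusted p under 0.05 these 7 comparisons held 0, 4, 2, 2, 4, 0 and 3 members. None had a slope over sleep that passed (3 at an unadjusted p under 0.05), where 7.87% of all genes did. Egr1 and Nr4a1 fell, without the 16 arrays, after 6 h of deprivation, where 1.38% of all genes fell, and Egr1 rose after 6 h of sleep, where 0.749% rose. The 8 comparisons share the same 9 baseline mice.

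The relatives of Nr4a1 did not move as it did. Nr4a3 and Nr4a2, the close relatives of Nr4a1 with nearly the same DNA-binding domain, rose with deprivation at 3 h, by 0.98 (SE 0.18, adjusted p = 0.000108 from limma) and by 0.43 (SE 0.11, adjusted p = 0.00341), at the hour when Nr4a1 was at -0.48. Leaving out the 16 arrays, they rose by 1.06 and 0.42. Nr4a3 ran from 6.72 to 7.57 (median 7.17) in sleep-deprived and from 5.43 to 6.77 (median 5.96) in sleeping mice, so that the states overlapped only slightly. Baseline mice had a median of 6.06. By 6 h both states of Nr4a3 had close means, 6.44 ± 0.30 (SD, n = 9) and 6.48 ± 0.66 (SD, n = 7).

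Whether the relatives moved unlike Nr4a1 was tested within mice, as the log2 value of the relative minus that of Nr4a1 in the same mouse, a comparison chosen after these values were seen. The shift between the states of Nr4a3 minus Nr4a1 was 1.46 at 3 h (two-sided exact permutation test, p = 4.11e-05, the smallest that 9 against 9 mice allow, adjusted p = 0.000164 over 16 tests), 1.01 at 6 h (adjusted p = 0.0199), 0.83 at 9 h (adjusted p = 0.000164) and -0.09 at 12 h (adjusted p = 0.476). For Nr4a2 minus Nr4a1 the shift was 0.92, 1.08, 0.89 and -0.44 (exact permutation, adjusted p = 0.000164, 0.00560, 0.000164 and 0.0771). Without the 16 arrays the shift of Nr4a3 was 1.54, 1.53, 0.90 and -0.15, and that of Nr4a2 was 0.90, 1.51, 0.94 and -0.50.

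**Figure D3:**
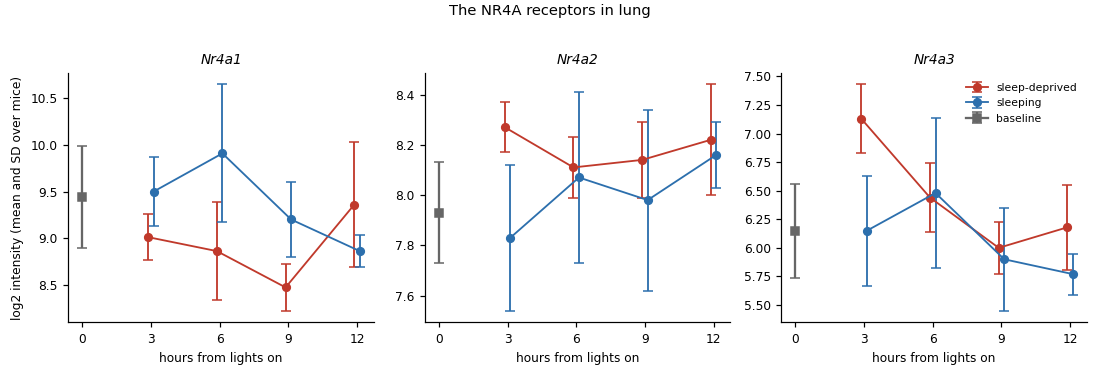
Log2 intensity (vertical axes, mean and SD over mice, each panel with its own range) of Nr4a1, Nr4a2 and Nr4a3 against hours from lights on (horizontal axes), grey squares for baseline, red for sleep-deprived and blue for sleeping mice. At 3 h Nr4a1 is lower (9.01 against 9.50) and Nr4a3 higher (7.13 against 6.15) in sleep-deprived mice.

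Other genes of the early response, in 6 lists with 86 measured genes, did not move as one body with the members. At 3 h, 7 of the 86 rose with deprivation and none fell, where 3.62% of all genes rose. Beside Nr4a3 and Nr4a2 these were the AP-1 partners Jdp2, a repressor that pairs with Jun (0.40, adjusted p = 4.67e-05 from limma), and Mafg (0.27, adjusted p = 0.000124), the zinc finger factor Klf6 (0.18, adjusted p = 0.00231), and Crem and Creb1 of the cyclic AMP pathway (0.50 and 0.27, adjusted p = 2.05e-05 and 0.00453). Crem encodes both activators and the early repressor ICER. With the 16 arrays left out, 9 rose and 1 fell, where 4.76% of all genes rose. The median of the 86 differences was 0.05 at 3 h, against -0.21 for the 10 members.

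At 6 h none of the 86 passed limma's test (14 at an unadjusted p under 0.05), where only 0.085% of all genes changed. Ccn1, a secreted matrix protein of the early response, was nearest among the early effector genes, at -0.44 (SE 0.12, adjusted p = 0.0568), and it fell by 0.59 without the 16 arrays (adjusted p = 0.000526). Then 6 of the 86 also rose at 6 h, where 2.58% of all genes did, Jdp2 by 0.41 (adjusted p = 5.09e-07) and the inhibitor of NF-kappaB Nfkbia by 0.42 (adjusted p = 2.19e-05) among them. At 9 h, 6 of 86 fell and 1 rose, where 2.08% of all genes fell. Among those that fell, the mRNA decay factors Zfp36l2 and Zfp36l1 fell by 0.33 and 0.38 (adjusted p = 1.89e-05 and 0.00558), the phosphatase Dusp2 by 0.35 (adjusted p = 0.00428), the clock repressor Bhlhe40 by 0.45 (adjusted p = 0.00829) and Crtc1, a coactivator of Creb, by 0.28 (adjusted p = 0.00958), whereas Maff, a small Maf protein, rose by 0.49 (adjusted p = 0.00985). When the 16 arrays were left out, 9 fell (3.93% of all genes) and 5 rose (3.2%) at 9 h, and Crtc1 was no longer among them. At 12 h none passed (9 at an unadjusted p under 0.05), where 0.133% of all genes changed. Over all hours 4 rose, Maff (0.31), Jdp2 (0.21), Mafk (0.13) and Crem (0.22), and 2 fell, Zfp36l2 (-0.16) and Dusp2 (-0.22), where 3.68% of all genes rose and 4.35% fell, so the shares of the 86 were near or below those of all genes. Leaving out the 16 arrays, 9 rose and 2 fell, where 6.3% and 5.8% of all genes did.

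Cell type markers moved at some of these hours. At 3 h all 5 measured B cell markers and 3 of 7 markers of neutrophils and monocytes fell with deprivation, and at 9 h all 5 B cell markers and 3 of 7 T and NK cell markers did (list medians -0.98 and -0.71), while 2 of 8 markers of smooth muscle and fibroblasts rose. Over all hours 5 B cell, 3 T and NK cell and 1 neutrophil and monocyte markers fell, and 3 of smooth muscle and fibroblasts rose, beside 1 each of lung epithelium and endothelium. At 3 h the summed B cell level ran from 10.04 to 11.18 in sleep-deprived and from 11.53 to 12.24 in sleeping mice, without overlap, and that of neutrophils and monocytes from 9.73 to 10.92 and from 10.74 to 11.61. At 6 h, where Egr1 fell, none of the 85 markers of 14 cell types and tissues passed limma's test (16 at an unadjusted p under 0.05). Only 0.085% of all genes changed at that hour, so this count says little about the cell types. In the 62 other arrays 7 of the 85 passed at 6 h (3 higher and 4 lower), where 2.58% of all genes rose and 1.34% fell. Among them, 3 of the 5 B cell markers were lower and 1 of the 7 of neutrophils and monocytes was higher in sleep-deprived mice. The summed level of the B cell markers at 6 h ran from 10.61 to 11.82 in sleep-deprived and from 11.08 to 12.01 in sleeping mice on the log2 scale, and that of neutrophil and monocyte markers from 10.29 to 11.16 and from 9.99 to 10.80. The summed level of thymus and lymph node markers stood further apart at 6 h, from 7.69 to 8.61 (median 8.09) in sleep-deprived mice against a lowest of 8.12 and a median of 9.24 in sleeping mice. These medians were 8.04 and 9.03 in the 62 other arrays, and 1 of the 5 markers passed, lower in sleep-deprived mice. Over the 78 mice with group means removed, Egr1 followed the neutrophil and monocyte level with r = 0.37 and the B cell level with r = 0.16, and Nr4a1 with r = 0.14 and 0.03. The thymus and lymph node level had r = 0.03 with Egr1 and -0.04 with Nr4a1. Their part in the differences was not tested. Liver transcripts were present in some lungs of several groups, with a summed level from 8.02 to 15.29 over the mice of 3 h and 6 h. They followed Egr1 with r = 0.06 and Nr4a1 with r = -0.09. Levels of other tissues also ranged widely over these mice. Skeletal muscle ran from 9.03 to 13.45 (r = -0.03 and 0.12), and oesophagus and skin from 8.23 to 14.02 (r = 0.10 and 0.10). Fat ran from 10.18 to 13.75 (r = -0.08 with Egr1 and 0.21 with Nr4a1). The part of these tissues was not tested either.

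Several of the members varied together from mouse to mouse. After the group means were removed, 19 of the 45 pairs of members correlated over the 78 mice (100000 permutations within groups, adjusted p under 0.01 over 45 pairs), all of them positively, and 17 of these also by rank. The share among pairs of all genes was not computed, so this count does not set the members apart from other genes. The median r over the 45 pairs was 0.32. It was 0.30 when each pair was taken without the 2 mice farthest from the median for its first gene, in the order in which the members are named above. Mice far out for the second gene alone were kept. Egr1 and Fos were closest, with r = 0.79 and rho = 0.77 (permutation, adjusted p = 5.6e-05 and 5e-05, the smallest that the permutations can give). Without the 2 mice farthest out for Egr1, their r was 0.74. Nr4a1 and Atf3 followed with r = 0.71 and rho = 0.74, and Fos and Ier2 with r = 0.70 and rho = 0.62 (permutation, adjusted p = 5.6e-05 for both r).

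Pairs of one family were not the closest. Egr1 correlated more with Fos than with Egr2 (r = 0.35) or Egr3 (r = 0.34), though these differences were not tested, and Junb was nearest to Ier2 (r = 0.65). Egr2 and Egr3 took part in 1 of the 19 pairs each and Jun in none, and the r of Jun with the other 9 ran from -0.15 to 0.10. Over the 62 other arrays 15 of 45 pairs passed, again all positive. Within the 4 runs of array numbers, the median r over the pairs was 0.32, 0.18, 0.49 and 0.43 (19, 16, 29 and 14 mice), and Egr1 with Fos had r = 0.71, 0.72, 0.82 and 0.94. All values of a mouse come from 1 array and 1 lung sample, and how many pairs of all genes correlate was not computed.

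**Figure D4:**
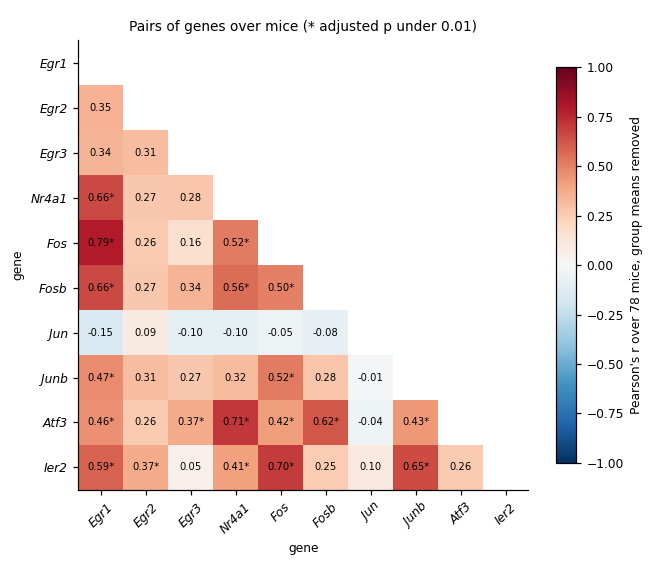
Pearson's r between each pair of the 10 genes (rows and columns) over 78 mice after group means were removed, from blue (-1) through white (0) to red (1), with asterisks for an adjusted permutation p under 0.01. Egr1 with Fos is highest at 0.79, and the row and column of Jun lie between -0.15 and 0.10.

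Some mice stood at the end of their group for several members at once. In sleeping mice at 3 h, array 75 was the highest mouse for 6 of the 10 members and array 60 the lowest for 7. At 6 h of sleep, arrays 64 and 65 were highest for 4 and 5 members. Array 10, labelled 9 h of sleep, was highest in its group for 6 members, and its number falls on 12 h of deprivation. Array 24, labelled 12 h of deprivation, was lowest for 6, and its number falls on 9 h of deprivation. The within-group SD was 0.46 for Nr4a1, 0.41 for Fos and 0.34 for Egr1, and 9 of the 10 members (all but Jun) lay above the median within-group SD of all genes, 0.14. Nr4a1 had an SD of 0.55 in baseline mice and of 0.37, 0.74, 0.40 and 0.17 after 3, 6, 9 and 12 h of sleep. By the variance tests of the study's methods (Bartlett, adjusted p under 0.01, and Brown-Forsythe, p under 0.01, over these 5 groups), no member passed, where 0.143% of all genes did. At an unadjusted Bartlett p under 0.05 there were 3 members (Nr4a1, Fos and Jun), and the smallest adjusted p was 0.0540 for Jun.

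The genes outside the 10 whose within-group pattern was most like that of Fos over 78 mice were Btg2, an antiproliferative early gene (r = 0.71), Zfp36, an mRNA decay factor (0.65), Ccn1 (0.61), Zfp747 (0.58) and Dusp1, a phosphatase of the mitogen-activated kinases (0.58). Those most like Egr1 were Ccn1 (r = 0.82), Nfkbiz (0.60), Btg2 (0.48), Ulk3 (0.47) and Nlrp1a (0.47). Leaving out the 16 arrays gave r = 0.80 for Ccn1 with Egr1 and 0.64 for Btg2 with Fos. These were picked as the highest of all genes and are a description with no test. Btg2, Zfp36 and Dusp1 themselves did not pass limma's test between the states at any hour, with or without the 16 arrays (smallest adjusted p 0.194).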

How the data were processed

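Lung RNA of 78 mice was hybridized to Mouse Gene 1.0 ST arrays (Affymetrix), each mouse to its own array. The deposited values are log2 intensities that the authors made by robust multichip averaging in R (oligo) over the lung arrays together; their decimal point is missing in the deposited file and was restored (range 2.27 to 13.85, array medians 6.45 to 6.78). The genome build behind the probe sets is not given in the sources used here. Of 35556 probe sets, 21218 have 1 gene symbol (18820 genes), 1881 several and 12457 none; a gene was taken from its probe set with the highest mean. Array number limits the precision, since arrays give no counts.

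Groups were compared with limma 3.58.1 (R 4.3.3) in a model of 9 groups, the state over all hours in a model with state alone on 69 arrays, and the slope on the 43 baseline and sleeping arrays, given as the change over 12 h. P-values were adjusted by Benjamini-Hochberg over all probe sets, with a threshold of 0.01; the script was tested on simulated data. Percentages of all genes count 1 probe set per gene. Pairs of members, exact permutation tests, promoter motifs and plots were computed in Python 3.11.15 with numpy 2.4.6, scipy 1.17.1 and matplotlib 3.10.9. Within-run differences, variance tests and the NR4A comparison within mice were chosen after the values were seen, and the members and lists were chosen with earlier results of these data known. All 10 members are named, with up to 3 genes per list by smallest adjusted p in each comparison, and the 5 genes most like Fos and Egr1. Alternatives left out the 16 arrays or each array in turn, or changed scaling, probe sets, the low-value filter, the variance model, array weights, samples in the fit, a term for time and runs as a block.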

Additional observations from a re-analysis of the deposited data

Results flagged for a closer look

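In 10 of 90 sets of values (1 gene in 1 group), the highest or lowest mouse stood apart from its group by Dixon's test, which flags about 1 in 20 sets by chance. Array 75, a sleeping mouse of 3 h, was at 9.11 for Egr1 (next mouse 8.42) and at 8.74 for Fos (next 7.69). Array 46, labelled 3 h of deprivation and among the 16 arrays, was at 7.68 for Fos (next 7.05), at 7.19 for Fosb (next 6.89) and at 8.00 for Junb (next 7.46). Array 54 of the baseline mice was at 8.93 for Egr1 (next 8.26), and array 1, a mouse of 9 h of deprivation, was at 7.27 for Fosb (next 6.86). Array 74 was at 8.99 for Atf3 (next 8.26) and array 51 at 7.14 for Ier2 (next 6.89), both labelled 6 h of deprivation and both among the 16. Array 43, labelled 3 h of deprivation, was low for Jun at 11.29 (next 11.46).

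The difference of Egr1 between sleep-deprived and sleeping mice changed over the hours by a narrow call (limma's F test of interaction, adjusted p = 0.00927), with -0.41, -1.06, -0.44 and 0.27 at 3, 6, 9 and 12 h. Leaving out any 1 of 43 arrays lost the call (adjusted p up to 0.0178), as did 5 runs as a block. The mice of 9 and 12 h lie in other runs than those of 3 and 6 h, so hour and run cannot be told apart there.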

How the results depend on the processing

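No member's difference that passed in any setting changed its direction, and 1409 of 1434 values of single members under alternatives stayed on their side of the threshold. The count of members past the threshold over all hours, 1 of 10, was 3 when the 16 arrays were left out, 2 when time entered the model, and 2 or 0 with a block for 4 or 5 runs. At 6 h it was 2 without the 16 arrays, 2 with array weights and 0 with only the groups compared. For the change over the hours it was 2 without the 16 arrays, 0 with 5 runs as a block and 2 with array weights. Leaving out single arrays gave 0 to 2 for each of these 3 counts. The slope over sleep went from 0 to 1 member with array weights (Atf3, -0.40, adjusted p = 0.00640 from limma), and 12 h of sleep against baseline from 0 to 1 (Atf3, -0.35, adjusted p = 0.00877). Against baseline at 6 h, the count for deprivation went from 0 to 2 and for sleep from 0 to 1 without the 16 arrays, and for sleep from 0 to 1 when array 66 was left out (range 0 to 1). Deprivation for 9 h against baseline kept 2 to 3 members and the F test over groups 4 to 7 when single arrays were left out. The cause of these changes was not tested. A minimum mean of 6 removed Egr3. The 7 to 9 mice per group limit the precision. No paired analysis was possible because the replicate numbers were given in accession order and tie no mice across groups.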
